A study of Mus musculus with 62 samples.

Results

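The genes described here are 9 clock output genes of the mouse, namely Dbp, Tef, Hlf, Nfil3, Ciart, Usp2, Wee1, Bhlhe40 and Bhlhe41. They form a given list, chosen with earlier results of these data known, and were found by Entrez identifier in each of 3 count tables, which gave 12968 tested genes for liver, 14838 for prefrontal cortex and 15118 for striatum. Of the 9 genes, 7 were listed for their known role, whereas Usp2 and Wee1 were picked by their liver pattern in these data. Values of Usp2 and Wee1 in the liver are therefore given as a description without a test, and counts of genes cover 7 genes wherever the liver is involved and 9 genes in the brain. All 9 genes were listed and passed the filter on low counts in every tissue.

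RNA sequencing was done on 62 libraries from female C57BL/6 mice, an inbred laboratory strain, that took by mouth the MARBLES mixture of polychlorinated biphenyls (PCBs, persistent industrial chemicals). The doses were 0 (vehicle), 0.1, 1 and 6 mg/kg. The liver had 4, 4, 6 and 6 libraries at these doses, and the prefrontal cortex and the striatum, taken as punches per the extract protocol, had 4, 5, 6 and 6 each. The labels give no age and no time of day of tissue collection. Each title carries a number that recurs across tissues within a dose group and was taken to name the same mouse. The labels do not say outright that the libraries of a group are separate animals, so p-values measure the spread between these libraries.

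The circadian clock is a transcriptional loop in which the activators CLOCK and BMAL1 (gene Arntl) bind E-box sequences in DNA and switch on their own repressors, the PER and CRY proteins. Output genes carry this rhythm to the rest of the cell. Dbp, Tef and Hlf encode the PAR bZIP activators, which bind D-box sequences, and Nfil3 encodes a repressor that binds the same sequences. Ciart (CHRONO), Bhlhe40 (DEC1) and Bhlhe41 (DEC2) encode repressors of CLOCK and BMAL1. Usp2 encodes a deubiquitinase, and Wee1 encodes a kinase that holds back entry into mitosis.

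Because E-boxes and D-boxes link these genes to the clock, the promoter windows held by RefSeq (GRCm38.p6) were searched over the 250 bases before the transcript start that each window is built on. Windows were found for 7 of the 9 genes, with 2 for Tef. The windows of Hlf and Bhlhe41 and the first of Tef lie outside the bounds of the gene, whereas those of Dbp and Ciart reach into it and those of Nfil3 and Usp2 and the second of Tef lie within it, at a start inside the gene. Both strands were searched for the E-box CACGTG, the related CACGTT and the D-box pattern TTANNTAA, which do not overlap in any of these windows. Among all 32817 windows, 6.02% held CACGTG, 3.85% held CACGTT and 5.43% held TTANNTAA. CACGTG was found in Tef, Ciart and Bhlhe41. The matching stretches are shown 5′ to 3′ on the strand of the gene, with the matches in capitals.
Ciart, chr3:95882255-95882356, minus strand: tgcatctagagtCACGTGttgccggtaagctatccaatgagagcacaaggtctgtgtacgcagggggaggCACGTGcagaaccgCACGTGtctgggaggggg
Tef, first window, chr15:81802487-81802563, plus strand: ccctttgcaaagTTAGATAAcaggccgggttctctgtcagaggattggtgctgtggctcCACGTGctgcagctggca
Tef, second window, chr15:81811264-81811293, plus strand: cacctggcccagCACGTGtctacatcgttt
Bhlhe41, chr6:145865556-145865585, minus strand: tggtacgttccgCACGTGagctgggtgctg
The Ciart window held 3 E-boxes, and the first Tef window was the only one of these with a D-box pattern. The windows of Dbp, Hlf, Nfil3 and Usp2 held no match to these letters. A match describes the sequence and is no measurement of binding.

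Library totals ranged from 7381179 to 10203247 counts for liver, 8722232 to 12135200 for prefrontal cortex and 8283032 to 12019651 for striatum. Defining markers separated liver from brain: 6 hepatocyte markers summed to between 95000 and 151000 CPM (counts-per-million) in the liver libraries and to at most 3.47 CPM in brain, where 4 of the 6 were listed. The brain regions overlapped in their markers. Cortical excitatory neuron markers (4 genes) summed to 1310 to 2210 CPM (median 1840) in the prefrontal cortex and 61.7 to 1520 CPM (median 224) in the striatum. Striatal projection neuron markers (6 genes) summed to 719 to 2310 CPM (median 1740) and 2010 to 5230 CPM (median 3480). In bulk tissue, fewer cells of a type and less RNA per cell cannot be told apart. All levels below are CPM scaled within a tissue by edgeR's TMM factors unless stated. Reads were assigned by an unstated strand rule, and the GENCODE vM21 exons of Dbp share 539 of 2993 bases with Sphk2 on the opposite strand. Bhlhe41 shares 1280 of 6720 exon bases with the unclassified transcript Gm43909, Tef shares 193 of 7867 with Gm17597, Usp2 shares 200 of 4818 with Gm49380 and Gm39325, and Bhlhe40 shares 118 of 4705 with 0610040F04Rik.

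In the liver, the activators Dbp and Tef and the repressor Ciart rose at 6 mg/kg against vehicle. With the repressor Bhlhe41, 4 of the 7 genes passed the test, but Bhlhe41 did so only with the filter on low counts and is not counted as risen. By edgeR's quasi-likelihood test 2.8% of all genes passed an adjusted p of 0.05 in this comparison. The filter asked for at least 1.09 CPM in any 4 or more of the liver libraries. Bhlhe41 reached that level in 0 of 4 vehicle livers and 12 of 16 dosed ones, and Ciart in 3 of 4 and 16 of 16, so these 2 genes passed the filter only with the help of dosed libraries. The count and the median over the 7 are therefore a description. With no filter Ciart still passed (edgeR adjusted p 0.0342) and Bhlhe41 did not (edgeR adjusted p 0.0591). The median log2 difference of the 7 genes was 1.42, against 0.02 over all tested genes. DESeq2 called 3 of them, Dbp, Tef and Ciart, and gave Bhlhe41 no adjusted p. None of the 7 passed as lower, and Hlf, Nfil3 and Bhlhe40 did not pass.

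Dbp (Entrez 13170, chr7:45705100-45710203) encodes a PAR bZIP activator with a strong daily rhythm in liver. Its liver level was 41.4, 44.6, 131 and 181 CPM in the 4 vehicle libraries. At 6 mg/kg it was 278 CPM at the lowest, 310 at the median and 368 at the highest. The groups did not overlap, and every 6 mg/kg library lay above every vehicle library. The ratio of the means was 3.2, the fitted log2 difference was 1.68 (SE 0.32) and the edgeR adjusted p was 0.0134. The vehicle libraries themselves fell apart, with animals 3 and 4 far below animals 7 and 8.

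Tef (Entrez 21685), the PAR bZIP relative of Dbp, was at 70.9, 62.8, 114 and 120 CPM in vehicle livers of animals 3, 4, 7 and 8. Its 6 mg/kg libraries ran from 152 to 348 CPM with a median of 253, again without overlap. The log2 difference was 1.42 (SE 0.26, edgeR adjusted p 0.013). Animals 3 and 4 were again the low vehicle pair.

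Ciart (Entrez 229599, chr3:95878500-95882257), a repressor of CLOCK and BMAL1, had a larger fold than Dbp and Tef from far fewer counts. The vehicle livers held 0.581, 1.24, 4.12 and 2.14 CPM, which correspond to 6, 13, 39 and 18 counts. At 6 mg/kg the level ran from 5.21 to 28 CPM with a median of 11.2, and the groups did not overlap. The log2 difference was 2.88 (SE 0.63, edgeR adjusted p 0.0248).

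Bhlhe41 (Entrez 79362, chr6:145858243-145865420) was scarcely detected in liver. The vehicle libraries of animals 3, 4, 7 and 8 held 0, 1, 8 and 1 counts, and those at 6 mg/kg held between 5 and 27 counts, or 0.6 to 3.16 CPM with a median of 1.44. The ranges overlapped, since animal 7 at 0.845 CPM lay above the lowest 6 mg/kg library. The fitted log2 difference was 2.53 (SE 0.69), given as a description, since the gene entered the test only through dosed libraries. With no filter it was 2.51 and did not pass (edgeR adjusted p 0.0591), and at so few counts its size is uncertain. Neuron markers (5 genes) summed to 51.6 CPM in vehicle animal 7 and to 7.96 to 10.5 CPM in the other 3 vehicle livers, against a median of 6690 CPM in the prefrontal cortex. At 6 mg/kg they ran from 8.6 to 73.4 CPM, and their part in the Bhlhe41 result was not tested.

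**Figure D1:**
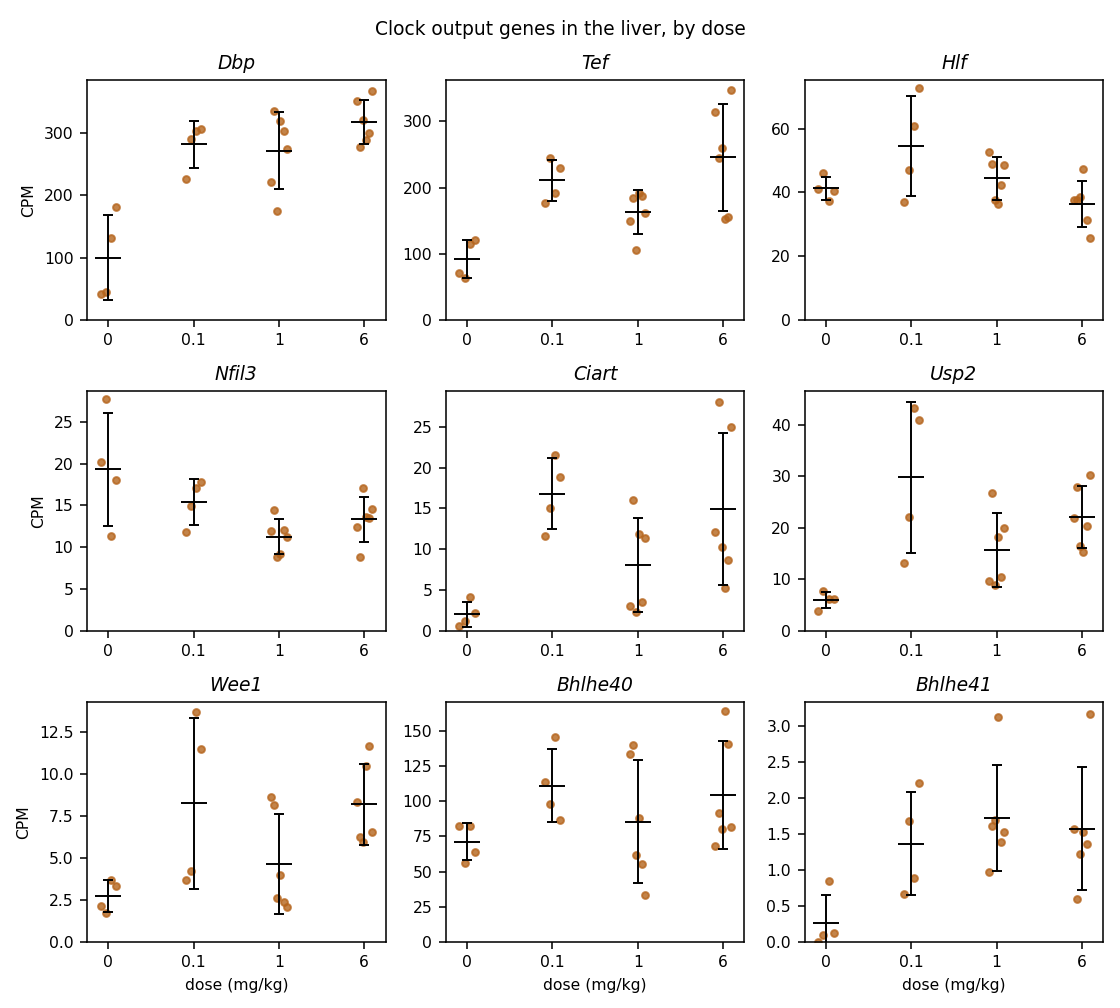
Levels of the 9 genes in the 20 liver libraries, in CPM scaled within the liver, against dose in mg/kg. Points are libraries, bars are the mean and the whiskers 1 SD. For Dbp, Tef and Ciart every 6 mg/kg library lies above every vehicle library, as it does for Usp2 and Wee1, which were picked by this pattern.

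The remaining tested genes gave other patterns. Nfil3 (Entrez 18030, chr13:52967209-52982878), the repressor that opposes Dbp at D-boxes, was at 20.2, 27.7, 11.3 and 18 CPM in vehicle livers and at 8.88 to 17.1 CPM with a median of 13.5 at 6 mg/kg. Its log2 difference was -0.54 (SE 0.21, edgeR adjusted p 0.138), and the ranges overlapped. Hlf (Entrez 217082, chr11:90336535-90390917) was at 37.4 to 46.1 CPM in vehicle and 25.8 to 47.4 CPM at 6 mg/kg, with a log2 difference of -0.18 (SE 0.18, edgeR adjusted p 0.565). Bhlhe40 (Entrez 20893, chr6:108660629-108666925) was at 56.4 to 82.3 and 68.5 to 164 CPM, with a log2 difference of 0.55 (SE 0.33, edgeR adjusted p 0.299). None of the 3 passed the adjusted threshold.

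Usp2 (Entrez 53376, chr9:44067021-44095627) and Wee1 (Entrez 22390, chr7:110122059-110143299) were chosen on the liver values that follow. Usp2 was at 3.87, 7.65, 6.23 and 6.19 CPM in vehicle and at 15.3 to 30.3 CPM at 6 mg/kg. At 0.1 mg/kg it was at 13.1, 22.1, 43.2 and 41 CPM. Wee1 was at 2.13, 1.72, 3.7 and 3.34 CPM in vehicle, at 5.97 to 11.7 CPM at 6 mg/kg and at 3.67, 4.2, 13.7 and 11.5 CPM at 0.1 mg/kg. The log2 differences at 6 and 0.1 mg/kg were 1.88 and 2.32 for Usp2 and 1.60 and 1.61 for Wee1.

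The lower doses showed how far the liver values followed dose. At 0.1 mg/kg Dbp was at 227, 291, 303 and 306 CPM and Tef at 177, 244, 192 and 230 CPM. Ciart was at 11.6, 15.1, 21.6 and 18.9 CPM there, and these genes all lay above every vehicle library. So did Bhlhe40, at 86.7 to 146 CPM against 56.4 to 82.3 CPM in vehicle (log2 difference 0.64, SE 0.35, edgeR adjusted p 0.994). The share of all genes without overlap was not counted at any dose. Dbp had a log2 difference from vehicle of 1.50 (SE 0.34), Tef of 1.20 (SE 0.27) and Ciart of 3.06 (SE 0.66), and each had the edgeR adjusted p 0.386. At 0.1 mg/kg none of the 7 genes passed, where 0.0154% of all genes did, and DESeq2 called 3. An unadjusted p under 0.05 was found for 4 of the 7 (4.1% of all genes). The 4 include Bhlhe41 and Ciart, which passed the filter only with the help of dosed libraries, so this count is a description. At 1 mg/kg Dbp ran from 175 to 336 CPM with a median of 289, and its lowest library, animal 45, lay within the vehicle range. At that dose 0 of the 7 passed by edgeR against a background of 0.0%, and DESeq2 called 2. An unadjusted p under 0.05 was found for 5 (8.44% of all genes). The 5 again include Bhlhe41 and Ciart, so this count is a description too. They also include Nfil3, which was lower than in vehicle (log2 difference -0.78, SE 0.21, edgeR adjusted p 0.418). Ciart at 1 mg/kg spanned 2.34 to 16 CPM and overlapped vehicle. Bhlhe41 at 1 mg/kg did not overlap vehicle, at 0.962 to 3.12 CPM against 0 to 0.845 CPM, from 9 to 26 counts against 0 to 8.

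Tested directly against each other, 6 and 0.1 mg/kg gave no call. None of the 7 passed by edgeR, where 0.0386% of all genes did, 1 had an unadjusted p under 0.05 (12.8% of all genes) and DESeq2 called 0. Dbp had a log2 difference of 0.17 (SE 0.30) and Ciart of -0.18 (SE 0.52) between these doses. Hlf had the smallest p, with a log2 difference of -0.58 (SE 0.18, edgeR adjusted p 0.208), from 36.9, 47.1, 60.8 and 72.8 CPM at 0.1 mg/kg to 25.8 to 47.4 CPM at 6 mg/kg. Over dose rank 2 of the 7 genes rose, Dbp by a log2 slope of 0.44 per step (SE 0.12, edgeR adjusted p 0.0457) and Tef by 0.36 (SE 0.10, edgeR adjusted p 0.0382), against 4.81% of all genes. Neither slope passed without any 1 of the 4 vehicle libraries or of 6 mg/kg animals 52, 53, 54 and 58, over mg/kg in place of rank, or after correction for GC content and length. All contrasts with vehicle share the same 4 vehicle livers.

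Single libraries decided the liver calls. Without vehicle animal 3 or without animal 4, 0 of the 7 genes passed at 6 mg/kg. Calls over all genes fell from 363 to 11 and 3 in these fits, so the loss was not particular to the 7 genes. The Dbp log2 difference was then 1.42 (edgeR adjusted p 0.0656) without animal 3 and 1.43 (edgeR adjusted p 0.0676) without animal 4, and Ciart had 2.57 (edgeR adjusted p 0.0997) and 2.70 (edgeR adjusted p 0.109). Without vehicle animal 8 or without 6 mg/kg animal 58, Dbp and Tef passed, among 137 and 60 of all genes. A fit on the 6 mg/kg and vehicle libraries alone also called 0 of the 7 and 13 of all genes, with a Dbp log2 difference of 1.69. Bhlhe41 also missed the threshold without 6 mg/kg animal 52 or 54 and after correction for GC content and length (edgeR adjusted p 0.0731), and DESeq2 gave it no adjusted p. Without vehicle animal 7 its log2 difference was 4.26. For 6 mg/kg against vehicle the 4 genes were higher under every alternative run.

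Other measures also separated the liver libraries. Red cell markers, of which 3 of 5 were listed, summed to 51.5 and 61.5 CPM in vehicle animals 3 and 4 and to 1180 and 2880 CPM in animals 7 and 8. At 6 mg/kg they ran from 84.4 to 229 CPM, and the 1 mg/kg library with the lowest Dbp, animal 45, was at 2450 CPM. Macrophage markers, with 5 of 5 listed, summed to between 131 and 217 CPM in vehicle livers and 246 to 458 CPM at 6 mg/kg, without overlap. Hepatocyte markers overlapped, at 103000 to 113000 CPM in vehicle and 95000 to 137000 CPM at 6 mg/kg. The part of these markers in the clock output results was not tested.

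The core clock list gave the setting for these changes: of its 17 genes tested in the liver at 6 mg/kg, 1 rose and 1 fell, where 2.8% of all genes passed. Per3, a relative of the PER repressors, had a log2 difference of 2.09 (SE 0.39, edgeR adjusted p 0.0134). Arntl, the gene of BMAL1, fell by 1.98 on the log2 scale (SE 0.48, edgeR adjusted p 0.0333). The vehicle livers of animals 3, 4, 7 and 8 held 9.88, 7.75, 3.38 and 3.93 CPM of Arntl and 5.23, 4.4, 21.7 and 17.9 CPM of Per3. The pair of vehicle animals low in Dbp was thus low in Per3 and high in Arntl. Of 6 known targets of the PAR bZIP activators 0 passed in the liver by edgeR and 3 had an unadjusted p under 0.05, as 24.2% of all genes had. Of these, Nr1i3, the nuclear receptor CAR, had a log2 difference of 1.03 (edgeR adjusted p 0.0698). Alas1, the first enzyme of heme synthesis, had one of 1.31 (edgeR adjusted p 0.0904).

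In the prefrontal cortex no activator or repressor of the list passed against vehicle. At 6 mg/kg 0 of the 9 genes passed by edgeR and DESeq2 called 0, against a background of 0.0%, and 3 had an unadjusted p under 0.05 (9.27% of all genes). Dbp was at 74.5, 95.4, 122 and 118 CPM in vehicle and at 117 to 148 CPM with a median of 129 at 6 mg/kg. The ranges overlapped, and the log2 difference was 0.34 (SE 0.13, edgeR adjusted p 0.444). Bhlhe40 was at 194, 180, 179 and 155 CPM in vehicle and at 97.2 to 178 CPM with a median of 131 at 6 mg/kg, a log2 difference of -0.45 (SE 0.14, edgeR adjusted p 0.327). Usp2, for which the prefrontal cortex was not part of the choice, had a log2 difference of 0.26 (SE 0.10, edgeR adjusted p 0.444), from 59.4 to 70.3 CPM in vehicle and 59.4 to 90.8 CPM at 6 mg/kg.

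The other prefrontal cortex contrasts gave no call either. At 1 mg/kg 0 of 9 genes passed by edgeR and by DESeq2, with 3 at an unadjusted p under 0.05 (8.29% of all genes). At 0.1 mg/kg 0 passed by both, with 0 at an unadjusted p under 0.05 (6.43% of all genes). After adjustment 0.0% of all genes passed in each of these. Between 6 and 0.1 mg/kg 0 of 9 passed by edgeR and by DESeq2, where 0.108% of all genes did by edgeR, with 2 at an unadjusted p under 0.05 (10.1% of all genes). Without 6 mg/kg animal 54, Bhlhe40 passed in that contrast, with a log2 difference of -0.58 (edgeR adjusted p 0.0356). Over dose rank 0 of 9 passed by edgeR, where 0.0202% of all genes did, with 3 at an unadjusted p under 0.05 (9.79% of all genes). DESeq2 called 1 of them, Bhlhe40, with a log2 slope of -0.17 per step (adjusted p 0.0404).

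In the striatum, Dbp was the 1 gene of the 9 with a call, and only between 6 and 0.1 mg/kg. At 6 mg/kg it was at 166 to 294 CPM with a median of 201. The libraries were at 137, 166, 128, 158 and 140 CPM at 0.1 mg/kg and at 169, 117, 205 and 138 CPM in vehicle. Against 0.1 mg/kg the log2 difference was 0.54 (SE 0.15, edgeR adjusted p 0.0461), where 2.91% of all genes passed. Against vehicle it was 0.44 (SE 0.16, edgeR adjusted p 0.222), with overlap. Over all genes the calls between 6 and 0.1 mg/kg went from 440 to between 0 (without 0.1 mg/kg animal 29) and 442 (without animal 28) when 1 library was left out. The Dbp call was lost when any 1 of 10 of the 11 libraries was left out, and was kept without animal 53 (log2 difference 0.61, edgeR adjusted p 0.0447). Bhlhe41 passed in its place without 0.1 mg/kg animal 28 (log2 difference 0.36, edgeR adjusted p 0.0423), and Wee1 without 6 mg/kg animal 58 (log2 difference -0.48, edgeR adjusted p 0.0416). After correction for the GC content and length of each gene, a step added after seeing the data, the log2 difference was 0.18 (edgeR adjusted p 0.55), and 58 of all genes passed.

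Bhlhe41 and Wee1 did not pass in the striatum in the reported fit but did under some alternatives. Bhlhe41 was at 67.4, 67.9, 92.4 and 74.9 CPM in vehicle, at 65.1 to 82.8 CPM at 0.1 mg/kg and at 77.9 to 92.1 CPM at 6 mg/kg. The log2 difference of Bhlhe41 for 6 minus 0.1 mg/kg was 0.30 (SE 0.09, edgeR adjusted p 0.0643), and 0.45 (edgeR adjusted p 0.0477) after that correction. Wee1 was at 22.9 to 27.5 CPM at 0.1 mg/kg and 13.8 to 24 CPM at 6 mg/kg, a log2 difference of -0.40 (SE 0.12, edgeR adjusted p 0.0742). DESeq2 called Dbp, Wee1 and Bhlhe41 in this contrast.

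Against vehicle, 0 of the 9 genes passed in the striatum by edgeR and by DESeq2 at 6, 1 or 0.1 mg/kg. After adjustment 0.0% of all genes passed in each case. At an unadjusted p under 0.05 there were 2, 0 and 0 of the 9, beside 15.7%, 7.36% and 2.53% of all genes. Over dose rank 0 of 9 passed by both tools, against 0.0% of all genes, and 2 had an unadjusted p under 0.05, as 13.1% of all genes had. Over mg/kg in place of dose rank, Dbp and Bhlhe41 passed, with log2 slopes of 0.09 (edgeR adjusted p 0.012) and 0.05 (edgeR adjusted p 0.022) per mg/kg. None of the 18 core clock genes passed at 6 mg/kg in either brain region, with 1 (prefrontal cortex) and 3 (striatum) at an unadjusted p under 0.05. Those counts compare with 9.27% and 15.7% of all genes. Of the PAR bZIP targets, 0 of 3 passed for prefrontal cortex and 0 of 4 for striatum, with 0 at an unadjusted p under 0.05 in each.

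**Figure D2:**
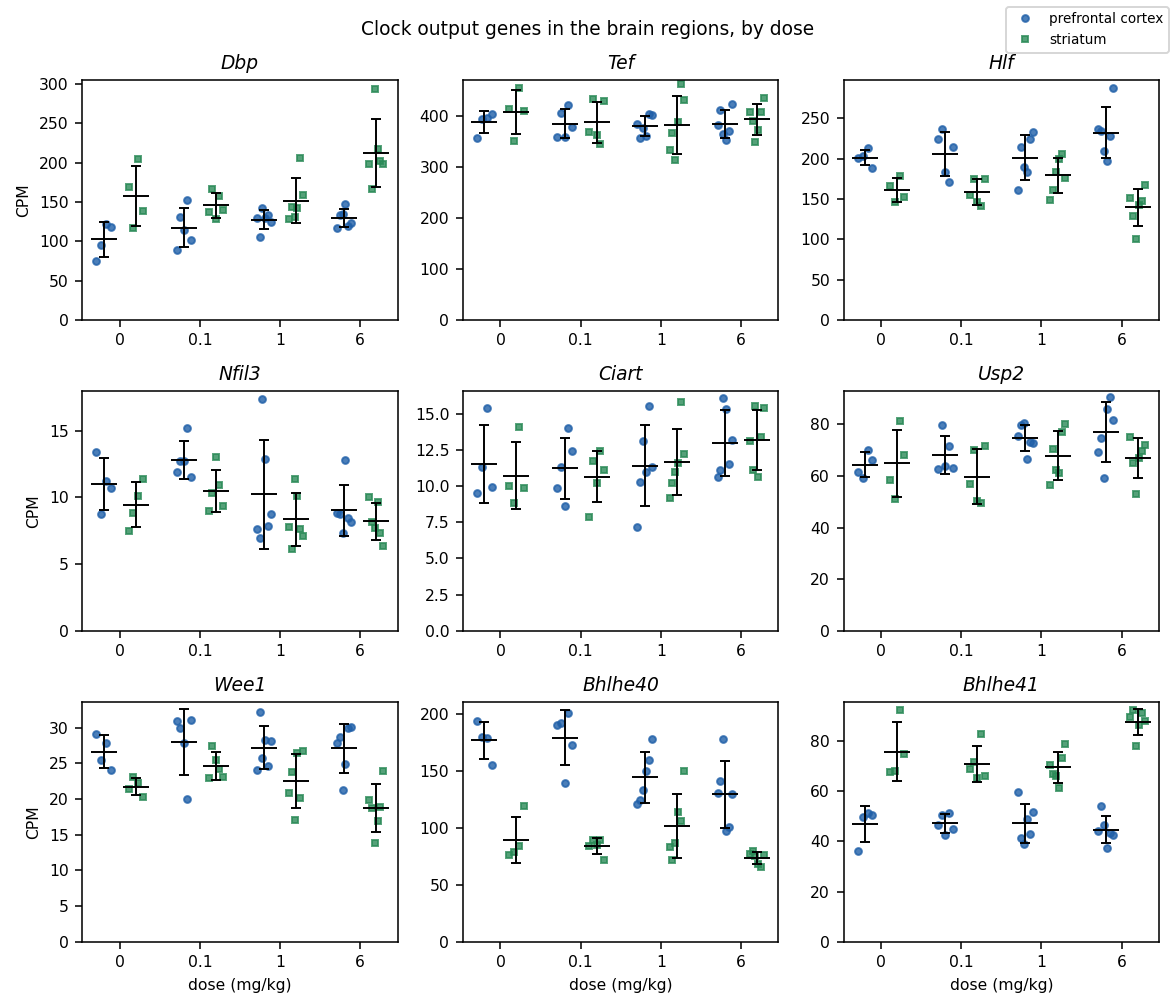
Levels of the 9 genes in the prefrontal cortex (circles) and the striatum (squares), in CPM scaled within each tissue, against dose in mg/kg. Points are libraries, bars the mean and whiskers 1 SD. The 6 mg/kg striatum libraries of Dbp run from 166 to 294 CPM, and Tef stays between 313 and 463 CPM in both regions at all doses.

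An interaction term tested whether the change at 6 mg/kg differed from one tissue to another. For liver minus prefrontal cortex 3 of the 7 genes passed, against 0.899% of all genes. Of these 3, Bhlhe41 rests on vehicle livers with 0, 1, 8 and 1 counts, so its value is a description of uncertain size. The log2 difference from vehicle was larger in the liver by 1.41 for Tef (SE 0.30, edgeR adjusted p 0.0333), by 2.70 for Ciart (SE 0.58, edgeR adjusted p 0.0337) and by 2.61 for Bhlhe41 (SE 0.60, edgeR adjusted p 0.0432). With the animal number as a replicate block, 0 of the 7 and 2 of all genes passed, against 129 of all genes without it, and the values were 1.40 for Tef (edgeR adjusted p 0.0975), 2.67 for Ciart (edgeR adjusted p 0.104) and 2.64 for Bhlhe41 (edgeR adjusted p 0.125). None passed without vehicle animal 3, 4 or 8 or without 6 mg/kg animal 52, 54 or 58, where 2 to 9 of all genes did, and of the 7 only Bhlhe41 did without vehicle animal 7 or 6 mg/kg animal 53. Dbp had a difference of 1.33 (SE 0.40, edgeR adjusted p 0.0941) and did not pass by edgeR. DESeq2 called 5 of the 7 in this interaction, Dbp and Bhlhe40 with Tef, Ciart and Bhlhe41, beside 938 of all genes. Between liver and striatum 0 of the 7 passed by edgeR, where 0.0277% of all genes did, although 5 had an unadjusted p under 0.05 (14.3% of all genes) and DESeq2 called Tef, Ciart and Bhlhe41. The interaction of Tef there was 1.45 (SE 0.31, edgeR adjusted p 0.12) and that of Ciart 2.58 (SE 0.58, edgeR adjusted p 0.141). Between striatum and prefrontal cortex 0 of 9 passed by edgeR and by DESeq2, against 0.0% of all genes. Hlf was the 1 gene of the 9 at an unadjusted p under 0.05, beside 6.43% of all genes.

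**Figure D3:**
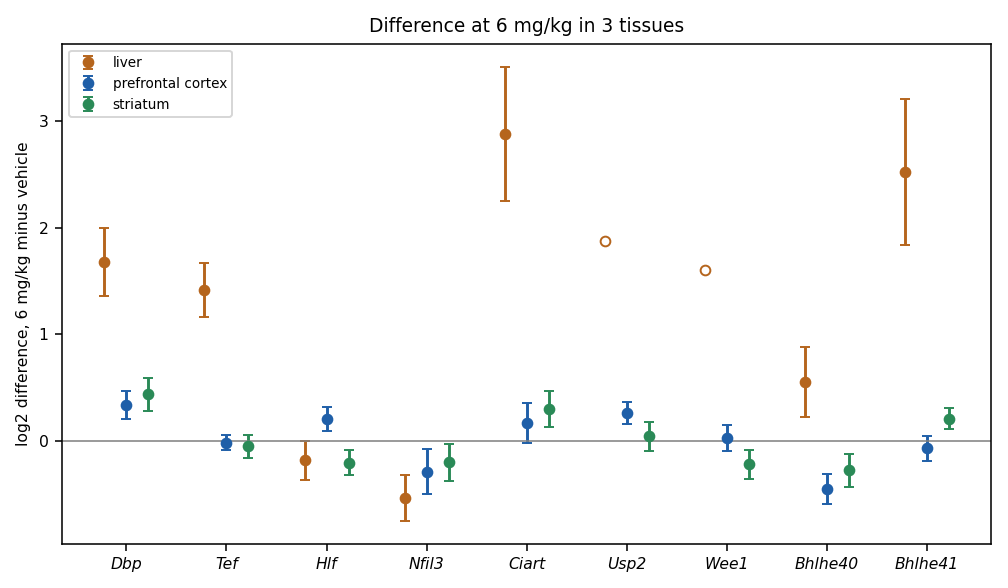
Log2 difference between 6 mg/kg and vehicle for the 9 genes in each of the 3 tissues, with whiskers of 1 SE. Open liver points without whiskers are Usp2 and Wee1, which were picked by their liver values. The liver points of Dbp, Tef, Ciart and Bhlhe41 lie at 1.42 or above. That of Bhlhe41 rests on 0, 1, 8 and 1 counts in the vehicle livers. The brain points of all 9 genes lie between -0.45 and 0.44.

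Vehicle mice gave the order of the tissues without exposure, from a joint scaling of the 12 vehicle libraries. This scaling leaves the median gene 0.17 lower (log2) in the liver than in either brain region, and differences that are small beside this shift depend on it. Between liver and prefrontal cortex 5 of the 7 genes differed, where 84.9% of all genes did, and between liver and striatum 6 of the 7 did, where 84.8% did. These shares are near the background. Bhlhe41 was at 0, 0.164, 1.59 and 0.207 CPM in the liver, 31.9 to 45.5 CPM in the prefrontal cortex and 56 to 77.8 CPM in the striatum. Its log2 difference was -6.48 for liver minus prefrontal cortex (SE 0.39), a size that rests on 10 liver counts in all. Bhlhe41 passed the filter here only through the brain libraries. Its difference and its place in the counts above are therefore a description.

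Tef, Hlf and Ciart were also lower in the liver than in both brain regions. Hlf was at 68.7 to 78.9 CPM in the liver, 168 to 190 CPM in the prefrontal cortex and 122 to 151 CPM in the striatum, with no overlap between liver and brain. Tef was at 108 to 214 CPM in the liver and 317 to 359 CPM in the prefrontal cortex. Nfil3 had the opposite order, at 21.2 to 47.5 CPM in the liver, 7.76 to 11.8 CPM in the prefrontal cortex and 6.2 to 9.51 CPM in the striatum. Its log2 difference was 1.77 for liver minus prefrontal cortex (SE 0.22, edgeR adjusted p 6.57e-07). Dbp did not pass (edgeR adjusted p 0.0606 for liver minus prefrontal cortex, and 0.0378 and 0.017 without vehicle animal 3 or 4), with 69.3 to 314 CPM in the liver, 65.9 to 108 CPM in the prefrontal cortex and 98.2 to 173 CPM in the striatum. Usp2 was at 6.48 to 13.1 CPM in the liver and 43 to 68.7 CPM over both brain regions, and Wee1 at 2.95 to 6.94 and 17 to 25.7 CPM.

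Bhlhe40 separated the brain regions. It was at 138 to 171 CPM in the prefrontal cortex, 96.6 to 155 CPM in the liver and 63.4 to 99.2 CPM in the striatum. The log2 difference was -1.07 for striatum minus prefrontal cortex (SE 0.16, edgeR adjusted p 0.000509) and 0.74 for liver minus striatum (SE 0.16, edgeR adjusted p 0.000487). Liver and prefrontal cortex did not differ beyond their spread for Bhlhe40 (edgeR adjusted p 0.0662), although the difference of -0.37 passed with median-ratio scaling (edgeR adjusted p 0.0368). Hlf was lower in the striatum than in the prefrontal cortex by a log2 difference of -0.41 (SE 0.10, edgeR adjusted p 0.015), a call that was lost without vehicle animal 3 or 4. Bhlhe40 and Hlf were the 2 of 9 genes that passed between the brain regions by edgeR, where 13.5% of all genes did. DESeq2 called 3 of the 9, these and Bhlhe41, beside 2613 of all genes.

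**Figure D4:**
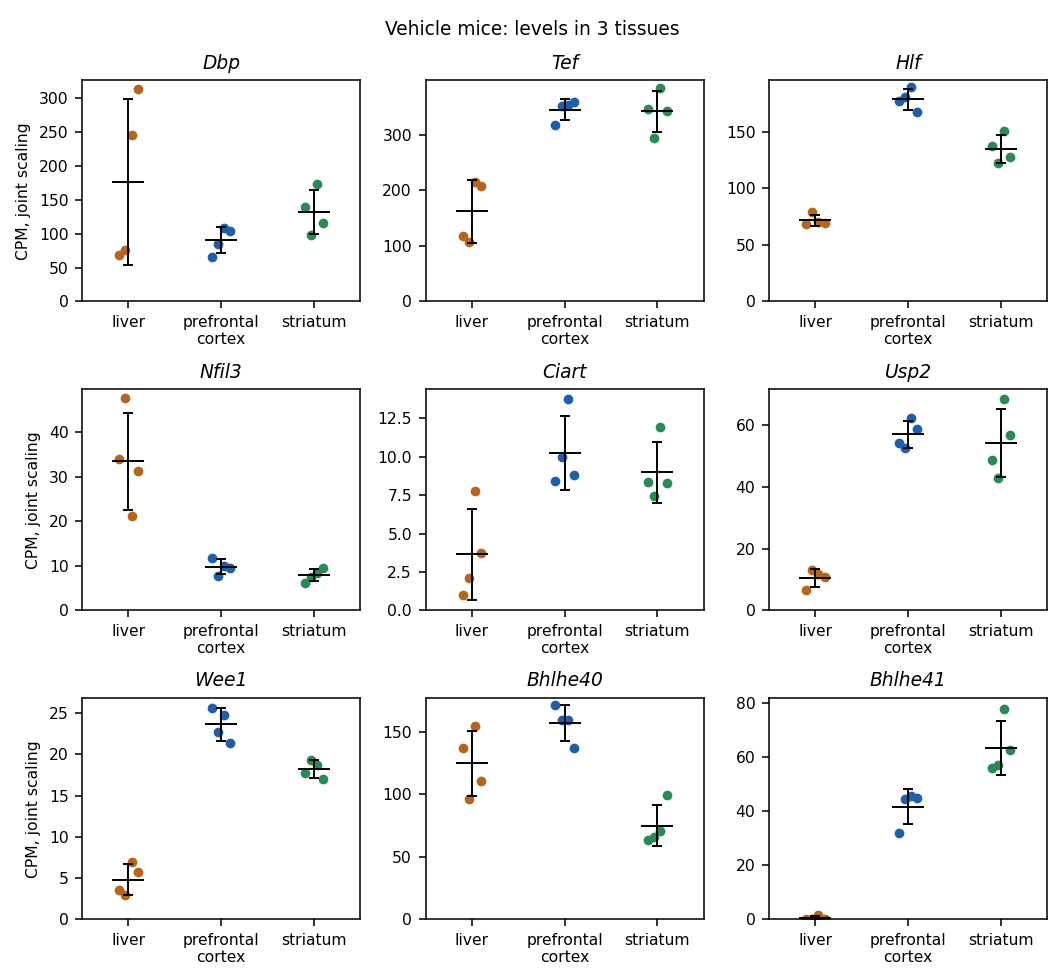
Levels of the 9 genes in the 4 vehicle animals in each of 3 tissues, in CPM from a joint scaling of the 12 libraries. Points are animals, bars the mean and whiskers 1 SD. Nfil3 is higher in every liver library than in every brain library, and Bhlhe41 in the liver lies at 1.59 CPM or below.

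Within a tissue, animals of the same dose differed from each other in Dbp, and some genes moved with it. Deviations of log2 CPM from the dose-group mean were compared with those of Dbp for the other 8 genes, Arntl and Nr1d1 (REV-ERB alpha, a repressor of Arntl), which gave 28 tested relations. P-values came from 100000 permutations within dose groups and were adjusted over the 28. How many of all genes had an r as large was not counted. Some genes outside the list had larger ones in every tissue, such as Magi1 at -0.93 in the prefrontal cortex. The correction for GC content and length was not applied to these relations. In the liver (n = 20), Tef followed Dbp with a Pearson r of 0.72 (permutation p 5e-05, adjusted 0.0014) and a Spearman rho of 0.83 (permutation p 0.00012, adjusted 0.00336). Without the 2 libraries farthest from the median of Dbp its r was 0.74. Ciart followed with an r of 0.60 (permutation p 0.00848, adjusted 0.0475), and an r of 0.61 without those 2 libraries. Its rho was 0.68 (permutation p 0.00515, adjusted 0.0288). With a prior count of 0.5 the r of Ciart did not pass. Bhlhe41 had an r of 0.49 that did not pass (permutation p 0.0729, adjusted 0.17) and a rho of 0.58 that did (permutation p 0.00778, adjusted 0.0311), with an r of 0.61 without those libraries. Arntl had an r of -0.56 that did not pass (permutation p 0.0128, adjusted 0.0598) and a rho of -0.66 (permutation p 0.00712, adjusted 0.0311). Usp2 and Wee1 had an r of 0.38 and 0.34, given without a test.

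Nr1d1 and Wee1 passed in the prefrontal cortex, and Ciart in the striatum. In the prefrontal cortex (n = 21), Nr1d1 had an r of 0.74 (permutation p 0.00027, adjusted 0.00252) and a rho of 0.74 (permutation p 0.00064, adjusted 0.00597), with an r of 0.72 without 2 libraries. Wee1 ran against Dbp there, with an r of -0.66 (permutation p 0.00155, adjusted 0.0108) and a rho of -0.67 (permutation p 0.00213, adjusted 0.0149), with an r of -0.66 without 2 libraries. In the striatum (n = 21), Ciart had an r of 0.75 (permutation p 0.00022, adjusted 0.00252) and a rho of 0.72 (permutation p 0.00057, adjusted 0.00597), with an r of 0.66 without 2 libraries. Whether a relation differed between tissues was not tested.

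**Figure D5:**
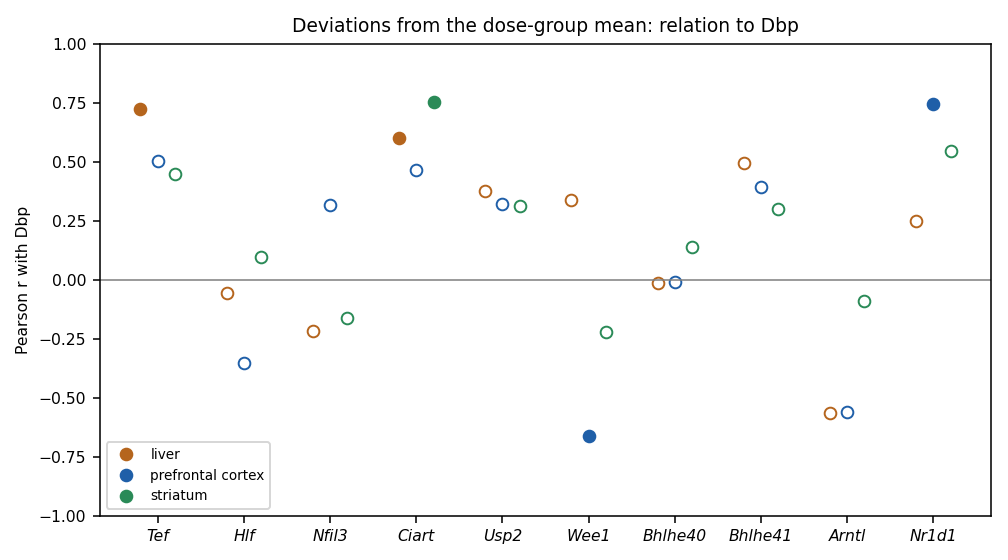
Pearson r between the deviations of Dbp from its dose-group mean and those of 10 genes, in liver (n = 20), prefrontal cortex (n = 21) and striatum (n = 21). Filled points have a permutation p under 0.05 after adjustment over 28 relations, and the liver points of Usp2 and Wee1 were not tested. The filled points are Tef and Ciart in the liver, Wee1 and Nr1d1 in the prefrontal cortex and Ciart in the striatum.

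The same gene was also compared between tissues of the same animal in 23 tested relations, and none passed after adjustment. Ciart between striatum and prefrontal cortex (n = 21) had an r of 0.66 (permutation p 0.00403, adjusted 0.0676). Its rho was 0.65 (permutation p 0.00482, adjusted 0.0941), and its r 0.60 without 2 libraries. Nfil3 between the same regions had an r of 0.64 (permutation p 0.0108, adjusted 0.0676). Its rho was 0.62 (permutation p 0.00883, adjusted 0.0941), and its r 0.54 without 2 libraries. The adjusted permutation p of 0.0676 was shared by relations of both signs. Between striatum and prefrontal cortex these were Hlf (r 0.569) and Wee1 (r 0.515). With the liver they were Tef for striatum (r 0.523) and Bhlhe40 for prefrontal cortex (r -0.556) and striatum (r -0.63). Dbp between liver and prefrontal cortex (n = 20) had an r of 0.43 (permutation p 0.239, adjusted 0.323), and an r of 0.14 without 2 libraries. Its rho was 0.26 (permutation p 0.354, adjusted 0.429). Between liver and striatum (n = 20) Dbp went the other way, from an r of 0.277 (permutation p 0.433, adjusted 0.497) to 0.615 without 2 libraries. Its rho there was 0.212 (permutation p 0.44, adjusted 0.482).

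Among all other genes with a mean of at least 5 CPM, the likeness to Dbp was described by the same Pearson r, without a test. Sphk2, whose exons overlap those of Dbp on the opposite strand, was among the 3 most alike in every tissue, with an r of 0.80 for liver, 0.86 for prefrontal cortex and 0.93 for striatum. With the counting strand not stated, reads of Dbp and Sphk2 in the shared bases cannot be told apart. Its liver levels were 58.5 to 163 CPM in vehicle and 175 to 321 CPM at 6 mg/kg. The others were Per3 with 0.81 and Ngef with 0.73 in the liver, Cdk2ap2 with 0.88 and Frmd8 with 0.86 in the prefrontal cortex, and Mmp11 and Trnp1 with 0.88 each in the striatum. The most negative were Hps1, Ctdp1 and Utp18 in the liver, at -0.76, -0.71 and -0.71. They were Magi1, Man1a2 and Lingo2 in the prefrontal cortex, at -0.93, -0.90 and -0.89, and Zfp608, Map4k3 and Sntb1 in the striatum, at -0.88, -0.87 and -0.86.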

How the data were processed

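RNA sequencing was measured in 62 libraries. For each tissue the authors deposited raw counts, as whole numbers for each Entrez gene. Per the submitters' processing notes, FastQC, HISAT2 and the mm10 build were used; the counting tool, annotation and use of strand are not given in the sources used here. Per the labels' protocols, mRNA was enriched by poly(A) capture or by rRNA removal, without saying which. Listed genes had at least 10 counts in all, and 0 columns were unmatched to a sample. Symbols came from RefSeq (GRCm38.p6) for at least 99.95% of identifiers in each tissue.

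Counts were filtered with filterByExpr, scaled by TMM and fitted over all dose groups of a tissue by edgeR 4.0.16 (quasi-likelihood test) in R 4.3.3, with Benjamini-Hochberg adjustment and a threshold of 0.05. Interactions and vehicle comparisons used joint fits of the tissues. Log2 CPM used a prior count of 2. DESeq2 1.42.0, other scaling and filters, fewer groups, an animal block and left-out libraries were alternatives; an offset for GC content and length was added after seeing the data. The fits and correlations were tested on simulated data. Library pairs within a group differed by a chi-square of at least 2.94 per degree of freedom, more than sampling noise gives, and no library was merged with another. The animal number in the titles pairs libraries across tissues. Deviations from the group mean were compared over genes between libraries of different tissues. Same-numbered libraries had a mean r of 0.00387 for liver with prefrontal cortex, 0.00457 for liver with striatum and 0.0936 for striatum with prefrontal cortex. For different animals of the same dose group the mean r was -0.000888, -0.00127 and -0.0199 in the same order.

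The members and gene lists were chosen with earlier results of these data known. By rule the text names all 9 members, core clock genes and PAR bZIP targets with the smallest p at 6 mg/kg (at most 4 per direction), and the 3 most and 3 least alike genes to Dbp per tissue.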

Additional observations from a re-analysis of the deposited data

Results flagged for a closer look

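For each gene, tissue and dose group the libraries were searched for 1 lying far from the others; of 108 such sets 5 held one, where chance alone flags about 1 in 20, or 5.4. Bhlhe41 in the liver was at 0.845 CPM in vehicle animal 7, where the other 3 ran from 0 to 0.119 CPM, and at 3.12 CPM in 1 mg/kg animal 46, where the other 5 ran from 0.962 to 1.69 CPM. In the prefrontal cortex Bhlhe41 was at 36.1 CPM in vehicle animal 3 (others 49.8 to 51.2 CPM), Nfil3 at 12.8 CPM in 6 mg/kg animal 55 (others 7.3 to 8.83 CPM) and Wee1 at 20 CPM in 0.1 mg/kg animal 28 (others 27.9 to 31.1 CPM).

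The difference from vehicle at 6 mg/kg was larger in the liver than in the prefrontal cortex for 3 genes by the interaction test in the fit without a block. The log2 values were 1.41 for Tef, 2.7 for Ciart and 2.61 for Bhlhe41. The value of Bhlhe41 rests on vehicle livers with 0, 1, 8 and 1 counts. With the animal number as a replicate block none of the 3 passed (edgeR adjusted p 0.0975, 0.104 and 0.125), and none did without any 1 of 6 of the 10 animals.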

How the results depend on the processing

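Values are numbers of genes that passed. For 6 mg/kg in the liver (4) the count was 0 with 2 groups alone and 0 to 4 with a library left out. At 1 mg/kg (0) it was 2 with DESeq2 and 0 to 1 with a library left out, and at 0.1 mg/kg (0) 3 with DESeq2 and 0 to 1; the single gene was Dbp, without vehicle animal 8. For the liver slope (2) it was 1 with no filter, 0 over mg/kg, 0 with the GC and length offset and 0 to 2 with a library left out. In the prefrontal cortex, 6 against 0.1 mg/kg (0) gave 0 to 1 with a library left out and the slope (0) gave 1 with DESeq2. In the striatum, 6 against 0.1 mg/kg (1) gave 0 with no filter, 2 with 2 groups alone, 3 with DESeq2 and 0 to 1 with a library left out, and the slope (0) gave 2 over mg/kg. For the interaction of liver and prefrontal cortex (3), DESeq2 gave 5, leaving out an animal 0 to 3, and for liver and striatum (0) DESeq2 gave 3. For vehicle striatum against prefrontal cortex (2), leaving out an animal gave 1 to 2. With the animal number as a replicate block, 0 genes passed for liver against prefrontal cortex, where Tef had a log2 difference of 1.40 (edgeR adjusted p 0.0975), and the block changed no other call. In all, 269 alternative counts stayed within 1.5 times and 47 did not, and no difference called in the reported fit changed sign. The relation of Dbp with Ciart in the liver had an adjusted permutation p of 0.0514 with a prior count of 0.5. Bhlhe41 in the liver is limited by its few counts. Causes were not tested.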
